A study of Mus musculus with 8 samples.

Results

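The mitochondrial ribosomal protein genes were followed in the ventral lobe of the mouse prostate. They were chosen by name: every Affymetrix probe set whose single gene symbol, in the platform annotation, began with Mrpl or Mrps and a number. This took 127 of the 22626 probe sets that were not controls, and they stood for 74 of the 12393 genes that had a single-symbol probe set. Of the 74, 49 encode proteins of the large subunit of the mitochondrial ribosome and 24 proteins of the small subunit. The remaining gene, Mrps36, carries a ribosomal name, but its protein is now known as a component of the 2-oxoglutarate dehydrogenase complex.

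The study set prostate cancer driven by middle T (MT), an oncoprotein of polyoma virus, against normal prostate. The MT group held 4 arrays of ventral prostate from mice carrying the transgene, and the WT group held 4 arrays of ventral prostate from mice without it. All were male FVB mice aged 8 weeks. The sources used here do not give the promoter that drives the transgene, and no probe set was named for middle T, so the transgene itself was not checked. Whether each array stands for its own animal is not stated, so the p-values measure only how far these samples vary, and that variation may be technical.

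The mitochondrial ribosome translates the few messages of mitochondrial DNA, all of which encode core subunits of the respiratory chain and of ATP synthase. Its RNAs come from mitochondrial DNA, but in mammals its proteins are encoded in the nucleus, made in the cytosol and imported. Some are relatives of bacterial ribosomal proteins and others are found only in mitochondria. Prostate epithelium is known for unusual mitochondrial metabolism, since the normal gland secretes citrate instead of oxidising all of it.

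Values are log2 intensities made with RMA, and every difference is the mean of the MT arrays minus the mean of the WT arrays on that log2 scale. Where a gene had several probe sets, the brightest on average across all 8 arrays represented it. Each gene was tested with limma, two-sided, and p-values were adjusted by the Benjamini-Hochberg method over all 12393 genes, with a threshold of 0.05. This fit did not use the replicate numbers, and a fit with them as a block is given further on. Every array correlated more closely with the others of its own group than with any array of the other group. All 11 luminal epithelial markers measured were higher in MT, with a mean level of 11.70 to 11.82 on MT arrays and 10.90 to 11.05 on WT arrays. Of the 5 prostate secretory markers measured, 4 were lower in MT and 1 was higher. The 6 seminal vesicle markers lay at 3.55 to 3.69 on MT arrays and 3.58 to 3.75 on WT arrays, close to the bacterial control probe sets, whose values ran from 2.57 to 3.90.

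Of the 74 genes, 8 were higher in MT, 14 were lower and 52 did not pass the threshold. The 22 that passed make 29.7% of the members, whereas 41.1% of all genes passed (19.7% higher and 21.3% lower). The median difference over the members was 0.01, against -0.01 over all genes, and the members ran from -1.18 to 0.54. Only 1 member, Mrps6, passed with a difference of at least 1 in size, a bound that 5.08% of all genes passed, and 6 passed with at least 0.5, as 17.7% of all genes did. In 25 members the 4 MT arrays and the 4 WT arrays did not overlap, 10 with MT above and 15 with MT below; among all genes the share without overlap was 40.0% (19.7% above and 20.4% below), and among the genes at or above the median level it was 55.7%.

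Most members are well above background, and genes with high signal passed the threshold more often. Of the 74 members, 72 had a mean level at or above the median over all genes. Among all genes at or above the median level 56.1% passed (27.2% higher and 28.9% lower), and of the 72 members there 20 did. The median size of a member's difference was 0.125, against 0.174 over all genes and 0.258 over the genes at or above the median level. The median standard error was 0.0705 for members, 0.0809 for all genes and 0.0775 for the genes at or above the median level. For each of the 52 members that did not pass, the 95% interval of the difference lay within 0.5 of 0 on both sides, from -0.43 at the lowest to 0.45 at the highest, and for 31 of them it lay within 0.25.

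**Figure D1:**
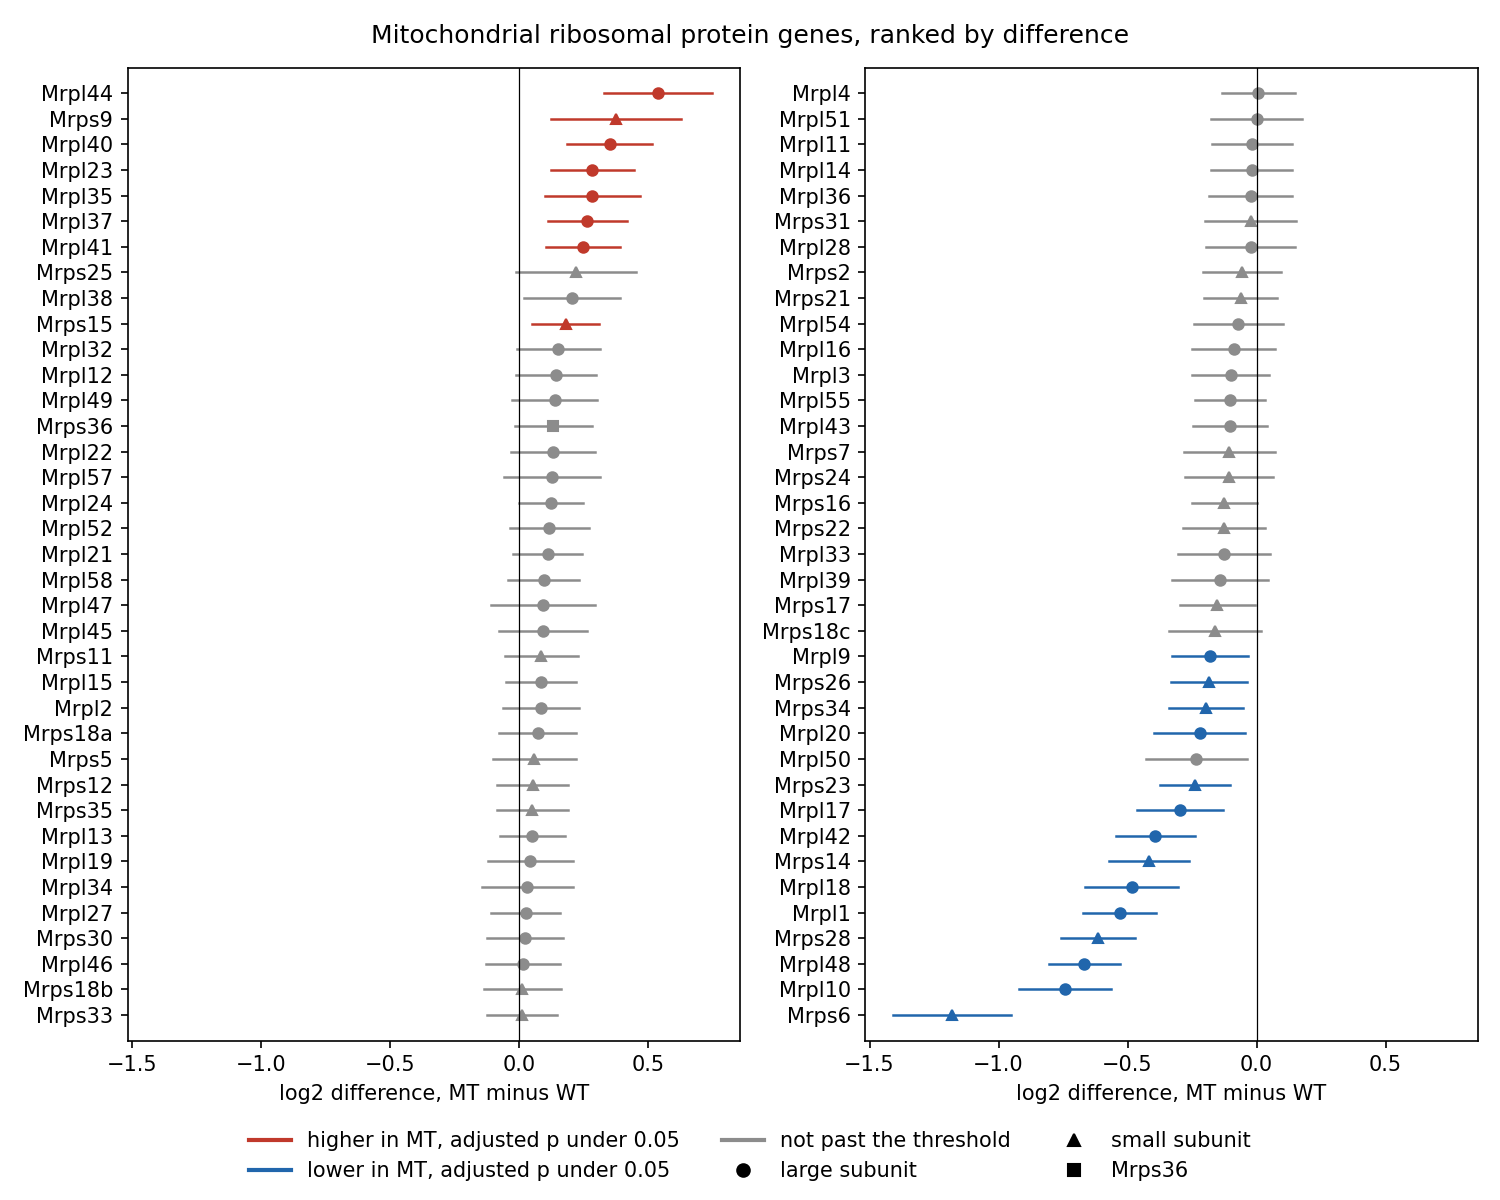
Each row is 1 of the 74 genes, ranked from the highest difference (top left) to the lowest (bottom right). Points are log2 differences, MT minus WT, with 95% intervals from limma (circles for the large subunit, triangles for the small subunit, a square for Mrps36), and they run from 0.54 for Mrpl44 to -1.18 for Mrps6.

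The members that fell furthest came from both subunits. Mrps6, the mitochondrial relative of bacterial S6 in the small subunit, read 6.96, 7.24, 6.94 and 6.98 on the MT arrays, against 8.37, 8.12, 7.98 and 8.37 on the WT arrays. Every MT array lay below every WT array, and the highest MT array, 7.24, stood apart from the other three. The mean was 7.03 ± 0.14 in MT and 8.21 ± 0.19 in WT (SD, n = 4 arrays each), 2.27-fold lower (log2 difference -1.18 ± 0.10 SE, limma adjusted p = 5.06e-06). The call held under all 18 alternative settings, among them the fit without that array.

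Mrpl10 belongs to the base of the stalk that holds Mrpl12 and recruits translation factors. It read 8.59, 8.55, 8.80 and 8.62 on the MT arrays, against 9.21, 9.50, 9.41 and 9.41 on the WT arrays. The groups lay well apart, and the mean was 1.67-fold lower in MT (log2 difference -0.74 ± 0.08 SE, limma adjusted p = 2.74e-05). Mrpl12 itself, which also binds the mitochondrial RNA polymerase, did not pass (difference 0.14, limma adjusted p = 0.127), and its MT and WT arrays overlapped.

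Mrpl48 sits in the central protuberance of the large subunit and is particular to mitochondria. It read 7.82, 7.84, 7.70 and 7.73 on the MT arrays, against 8.42, 8.44, 8.38 and 8.51 on the WT arrays. The spread within each group was small beside the gap, and the difference was -0.67 ± 0.06 SE (limma adjusted p = 8.74e-06). Mrps28, a small-subunit protein related to bacterial S1, read 8.39, 8.34, 8.32 and 8.25 on the MT arrays, against 8.84, 8.997, 8.91 and 9.01 on the WT arrays. It differed by -0.62 ± 0.07 SE without overlap (limma adjusted p = 2.08e-05).

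Mrpl1, of the flexible L1 stalk beside the exit site for spent tRNA, read 5.81, 5.74, 5.85 and 5.82 on the MT arrays, against 6.36, 6.23, 6.42 and 6.35 on the WT arrays. The groups did not overlap, and the difference was -0.53 ± 0.06 SE (limma adjusted p = 5.64e-05). The gene's other probe sets did not follow, as given with the probe sets of Mrpl1 further on. Mrpl18, another protein of the central protuberance and a relative of the bacterial L18 that binds 5S rRNA, read 6.80, 6.98, 6.74 and 6.90 on the MT arrays, against 7.23, 7.38, 7.24 and 7.50 on the WT arrays. All MT arrays lay below all WT arrays (difference -0.48 ± 0.08 SE, limma adjusted p = 0.000649).

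The other 8 members that fell did so by less. Mrps14, of the head of the small subunit, averaged 9.53 ± 0.07 in MT and 9.95 ± 0.10 in WT (SD, n = 4 each), a difference of -0.42. Mrpl42, a protein without a bacterial relative, averaged 8.58 ± 0.04 in MT and 8.97 ± 0.11 in WT, a difference of -0.39. Mrpl17, which lies near the exit of the tunnel for the new chain, averaged 9.26 ± 0.08 in MT and 9.55 ± 0.12 in WT, a difference of -0.30. These 3 had limma adjusted p-values of 0.000671, 0.000877 and 0.00876, in that order, and none of them overlapped between groups. The remaining 5 were Mrps23 at -0.24, Mrpl20 at -0.22, Mrps34 at -0.20, Mrps26 at -0.19 and Mrpl9 at -0.18, with limma adjusted p-values from 0.00858 for Mrps23 to 0.0489 for Mrpl9. Mrps23, Mrps26 and Mrps34 are particular to mitochondrial ribosomes, and Mrpl20 is a relative of an early assembly protein of bacteria. Mrpl20 is the only member past the threshold whose groups overlapped, since 1 MT array read 9.098 and 1 WT array read 9.002.

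The rises were smaller than the largest falls. Mrpl44, which has a fold like that of ribonuclease III and lies on the large subunit, read 7.92, 7.79, 7.84 and 7.97 on the MT arrays, against 7.29, 7.10, 7.56 and 7.40 on the WT arrays. Its probe set separated the groups, with a difference of 0.54 ± 0.09 SE (1.45-fold higher, limma adjusted p = 0.000829), but the gene's other probe sets did not follow, as given with the probe sets of Mrpl44 further on. Mrpl40, a protein of the central protuberance particular to mitochondria, read 7.95, 8.06, 8.04 and 7.90 on the MT arrays, against 7.48, 7.73, 7.72 and 7.61 on the WT arrays. It was higher on every MT array than on any WT array, with a difference of 0.35 ± 0.07 SE (limma adjusted p = 0.0029).

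Mrps9, a relative of bacterial S9, read 6.87, 6.79, 6.77 and 6.74 on the MT arrays, against 6.56, 6.09, 6.31 and 6.70 on the WT arrays. The WT arrays were spread widely, with an SD of 0.27 against 0.06 in MT, and the nearest arrays, 6.74 in MT and 6.70 in WT, lay close together without overlap (difference 0.38 ± 0.11 SE, limma adjusted p = 0.0211). Mrpl23, which stands at the tunnel exit, averaged 8.50 ± 0.08 in MT and 8.21 ± 0.11 in WT, a difference of 0.29 (limma adjusted p = 0.00909). Mrpl35, of the bacterial L35 family, averaged 8.65 ± 0.08 in MT and 8.37 ± 0.15 in WT, a difference of 0.28 (limma adjusted p = 0.0174). The other 3 rises were Mrpl37 at 0.27 and Mrpl41 at 0.25, both particular to mitochondria, and Mrps15 at 0.18, a relative of bacterial S15, with limma adjusted p-values of 0.00983, 0.00986 and 0.0298 in that order. In each of the 8 rises all MT arrays lay above all WT arrays, as in 19.7% of all genes. These 8 were chosen by a test on the same arrays, so the lack of overlap adds no separate evidence.

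**Figure D2:**
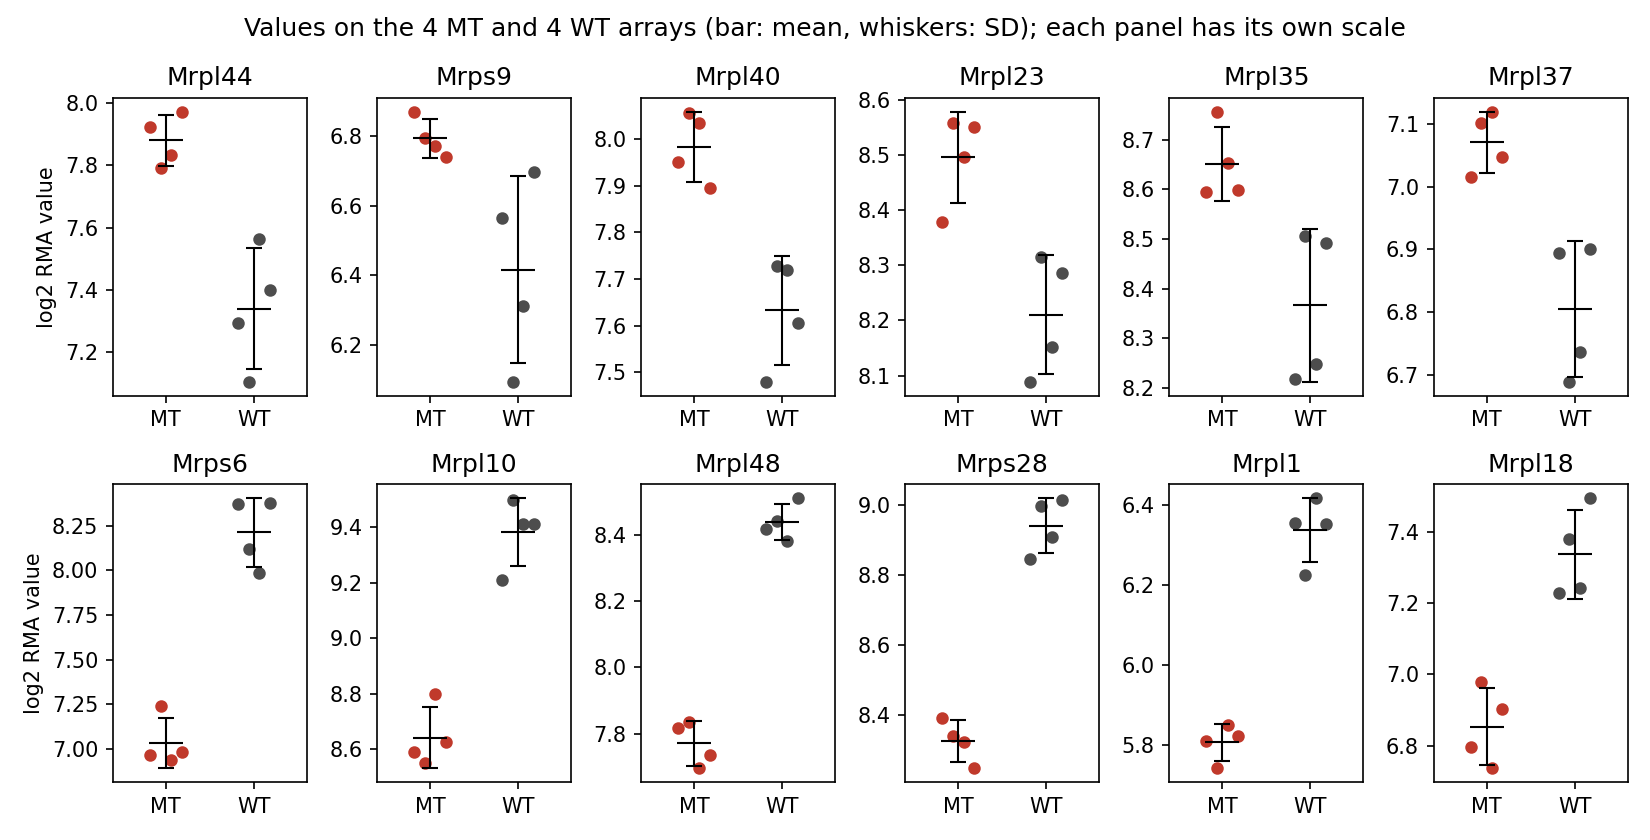
Points are log2 RMA values of single arrays, bars are means and whiskers are SDs (4 MT arrays left, 4 WT arrays right in each panel), and each panel has its own scale. The top row holds the 6 largest rises and the bottom row the 6 largest falls, and in all 12 panels the groups do not overlap. These 12 were picked by their differences on the same arrays.

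The stretches of 120 bases before the RefSeq start (build GRCm38.p6) are shown for the members at the ends of the ranking and for others that differ in a pair of sequence motifs long tied to nuclear genes of mitochondrial proteins. Capitals mark matches, on either strand, to the NRF1-type motif, which reads GCGC, any base, T and GCGC, or to CCGGAAG, the core bound by ETS factors such as GABP. Mrps6 and Mrpl10, the largest falls, hold neither in this stretch; Mrpl44, the largest rise, and Mrpl17, a fall, hold the NRF1 type; Mrps18a, which did not pass, holds the ETS core.
Mrps6 (chr16:92058216-92058335, plus strand): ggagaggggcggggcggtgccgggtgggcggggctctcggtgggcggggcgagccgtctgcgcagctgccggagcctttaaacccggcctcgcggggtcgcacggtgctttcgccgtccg
Mrpl10 (chr11:97041462-97041581, plus strand): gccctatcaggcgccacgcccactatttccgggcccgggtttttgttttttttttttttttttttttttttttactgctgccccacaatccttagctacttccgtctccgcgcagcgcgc
Mrpl44 (chr1:79775898-79776017, plus strand): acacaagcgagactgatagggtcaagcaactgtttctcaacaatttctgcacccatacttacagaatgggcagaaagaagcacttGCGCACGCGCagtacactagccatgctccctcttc
Mrpl17 (chr7:105811088-105811207, minus strand): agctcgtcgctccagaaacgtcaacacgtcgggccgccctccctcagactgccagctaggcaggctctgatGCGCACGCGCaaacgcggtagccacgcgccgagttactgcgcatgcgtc
Mrps18a (chr17:46110884-46111003, plus strand): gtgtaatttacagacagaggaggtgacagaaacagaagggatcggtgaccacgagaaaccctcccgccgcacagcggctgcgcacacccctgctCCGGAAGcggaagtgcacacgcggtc

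Over the full windows of 250 bases before to 50 after the start, RefSeq gave a promoter for 65 of the 74 members. The NRF1-type motif lay in 18.5% of those members and in 9.36% of the 9882 tested genes with a promoter, and the ETS core in 36.9% and 16.4%. At least 1 of these motifs was found in 49.2% of members and 23.6% of tested genes. The YY1-type motif AAGATGGCG lay in 10.8% of members and 2.82% of tested genes, and the Sp1-type motif GGGCGGG in 44.6% and 46.3%. The CCAAT box was found in 38.5% of members and 42.3% of tested genes, the E-box CACGTG in 7.69% and 10.8%, and TATAAA in 7.69% and 11.9%. The ETS core was found in 0 of the 8 members that rose, in 5 of the 12 with a promoter that fell and in 19 of the 45 that did not pass. For the NRF1 type these numbers were 2, 3 and 7. The groups are small, and the split of motifs by call was not tested. Both strands were searched, a gene with several starts counted once, and overlaps between motifs were allowed. A match describes the letters of a window and nothing about binding.

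By subunit, the large subunit had 6 members higher, 8 lower and 35 not past the threshold, with a median difference of 0.03. The small subunit had 2 higher, 6 lower and 16 not past, with a median of -0.08. That made 12.2% higher and 16.3% lower for the large subunit, and 8.33% and 25% for the small one. Among all genes at or above the median level, where 48 of the 49 and 23 of the 24 lay, the shares were 27.2% and 28.9%. The mean level over the 24 small-subunit genes ran from 7.99 to 8.06 on MT arrays and from 8.09 to 8.17 on WT arrays, so these ranges did not overlap. That lack of overlap rested on Mrps6. Without this gene, a choice made after seeing the data, the highest MT array (8.0943) lay just above the lowest WT array (8.0935). The difference in mean level was still -0.07, against -0.11 with Mrps6. Over the 49 large-subunit genes the mean ran from 8.13 to 8.17 on MT arrays and from 8.10 to 8.21 on WT arrays, with overlap. Over all 74 genes the mean ran from 8.08 to 8.13 on MT arrays and from 8.09 to 8.19 on WT arrays, and these overlapped too. The difference between the subunits was not tested.

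Split by descent, the large-subunit proteins with bacterial relatives had 2 higher and 6 lower of 29, and those particular to mitochondria had 4 higher and 2 lower of 19. The small-subunit proteins with bacterial relatives had 2 higher and 3 lower of 15, and those particular to mitochondria had 0 higher and 3 lower of 8, namely Mrps23, Mrps26 and Mrps34. These lists are short, and among all genes at or above the median level 27.2% were higher and 28.9% lower. The split by descent was not tested. The S18 family has 3 versions in mammals that take different places in the ribosome. None of them passed: the difference was 0.07 for Mrps18a, which sits in the large subunit despite its name, 0.01 for Mrps18b and -0.16 for Mrps18c. Mrps18c alone of these passed in 1 setting, without WT replicate 1 (-0.23, limma adjusted p = 0.0205).

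Several members with known special duties did not pass. Mrps12, at the decoding centre, differed by 0.05, with 8.95 ± 0.03 in MT and 8.89 ± 0.08 in WT (SD, n = 4 each). Mrpl45, which anchors the ribosome to the inner membrane, differed by 0.09, and its 95% interval ran from -0.08 to 0.26. Mrps30, which in mammals lies in the large subunit, differed by 0.02, and Mrps36 by 0.13. Of the members nearest to the threshold, Mrpl50 (-0.23, limma adjusted p = 0.058) and Mrpl38 (0.21, limma adjusted p = 0.0745) were the closest on the outside. Mrpl9 (-0.18, limma adjusted p = 0.0489) and Mrpl20 (-0.22, limma adjusted p = 0.0462) were the closest within.

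The 127 probe sets were also tested singly, with p-values adjusted over all 22626. Of them 13 were higher in MT, 20 lower and 94 not past the threshold, so 26.0% passed, against 37.8% of all probe sets (18.1% higher and 19.7% lower). There were 41 genes with 1 probe set and 33 with several, up to 7 for Mrpl15. Of the 22 genes that passed, 12 had several probe sets, and in 3 of these (Mrps23, Mrps14 and Mrpl48) all probe sets passed in the same direction. In 14 genes the probe sets had different calls.

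Mrpl44 and Mrpl1 had probe sets that passed in opposite directions. The Mrpl44 probe set that stood for the gene differed by 0.54, another by 0.09 and the third by -0.29 (limma adjusted p = 0.0276 over probe sets). This last one averaged 6.67 in MT and 6.96 in WT, well above background, so the direction for Mrpl44 depends on the probe set. For Mrpl1 the probe sets differed by -0.53, -0.06 and 0.21, and the last, at 3.52 in MT and 3.31 in WT, read no higher than the bacterial controls on 3 MT arrays and all 4 WT arrays. The second, at 5.64 in MT and 5.70 in WT, read above those controls on every array and did not pass (limma adjusted p = 0.655 over probe sets). The fall of Mrpl1 therefore rests on the probe set that stood for it.

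Other genes had probe sets that differed in size. Mrps9 had 3 of 4 probe sets higher, the largest difference being 0.66 (limma adjusted p = 0.000144 over probe sets). Mrpl41 had 2 of 3 higher, at 0.25 and 0.35, and its last lay at 0.00. Mrpl9 had its second probe set lower, at -0.40 (limma adjusted p = 0.00416), past the threshold more clearly than the -0.18 of the one that stood for it, which missed the threshold when adjusted over probe sets (limma adjusted p = 0.0554). Mrpl35, Mrpl17 and Mrpl42 rest on the probe set that stood for them, since the others differed by -0.04, -0.03 and 0.17 and did not pass. Among members that did not pass by gene, Mrpl50 and Mrpl3 each had another probe set that was lower, at -0.37 and -0.30, and so had Mrpl57 at -0.38. Mrpl15 had 1 of 7 higher, at 0.31. The dimmest probe set of Mrpl19 was lower, at -0.17, but on all 8 arrays it read no higher than the bacterial controls.

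**Figure D3:**
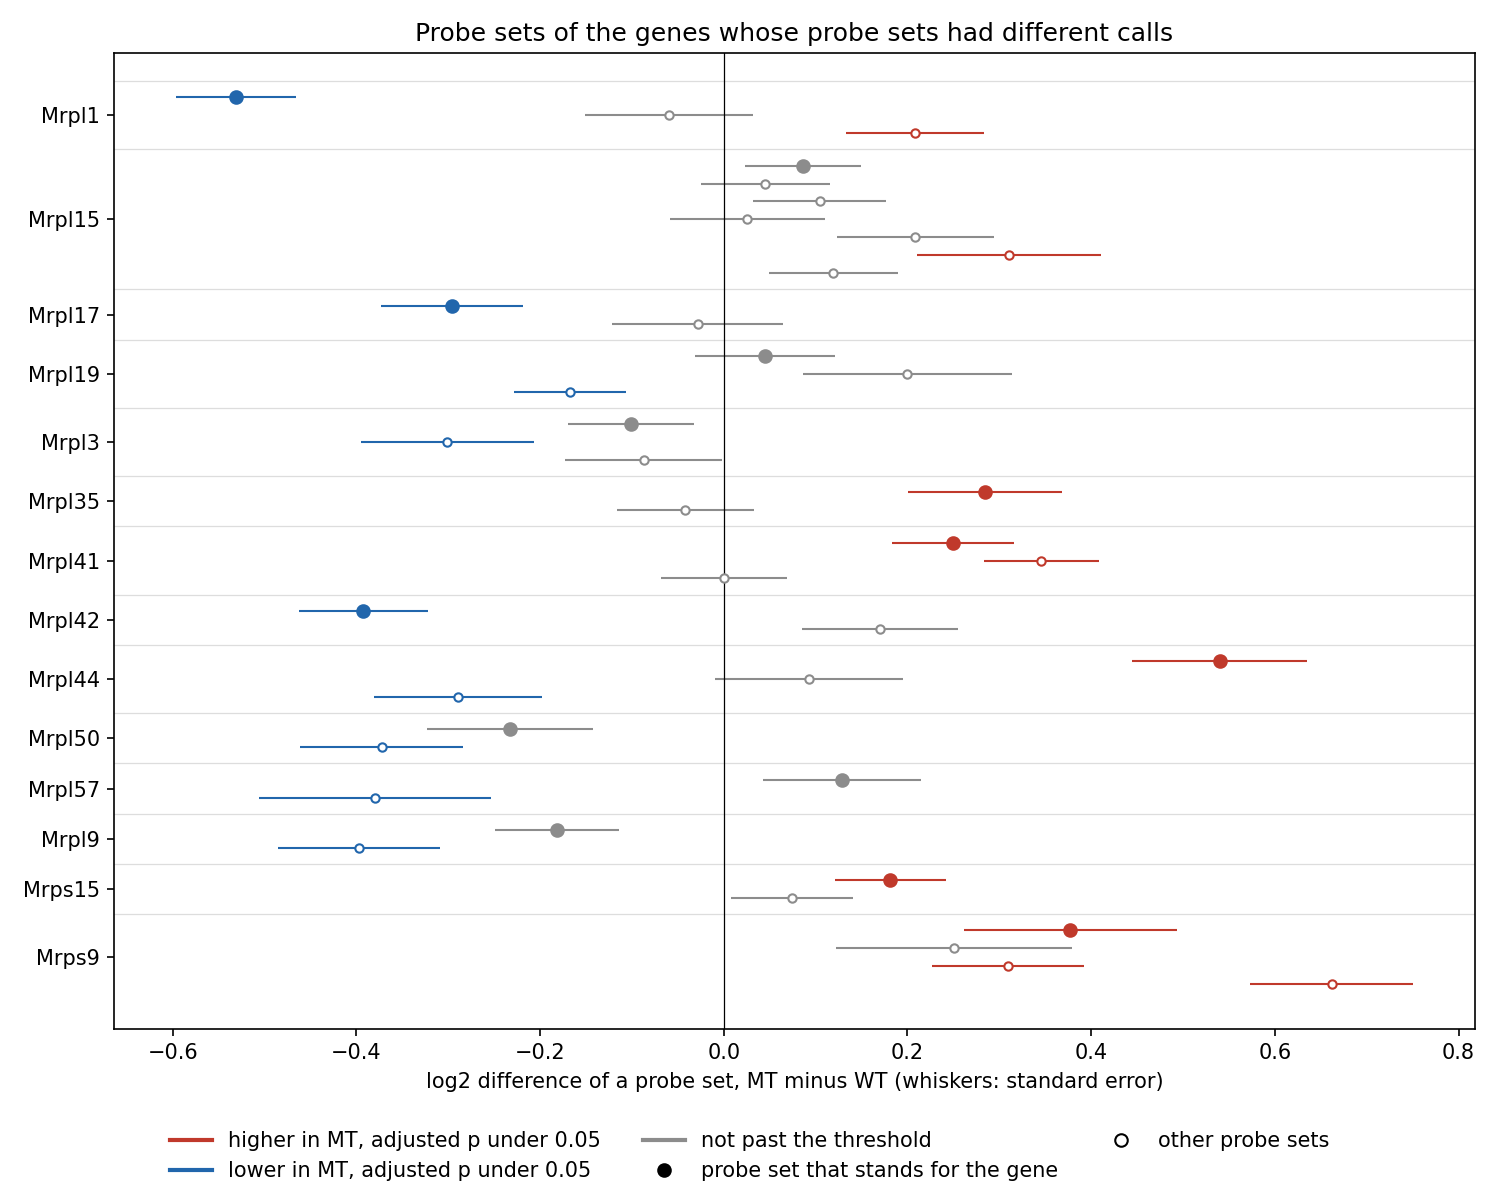
Points are the log2 differences, MT minus WT, of single probe sets of the 14 genes whose probe sets had different calls, with standard errors as whiskers. Filled points are the probe sets that stood for their genes, colours give the call adjusted over all 22626 probe sets, and Mrpl1 and Mrpl44 have a coloured point on each side of 0.

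The calls did not all rest equally firmly on the 8 arrays. Of the 22, 11 were kept under every alternative setting run for them except a test against a minimum difference of 0.25, 4 higher (Mrpl23, Mrpl37, Mrpl40 and Mrpl41) and 7 lower (Mrpl10, Mrpl18, Mrpl48, Mrps14, Mrps23, Mrps28 and Mrps6). With that test included, 5 were kept, 0 higher and 5 lower (Mrpl10, Mrpl18, Mrpl48, Mrps28 and Mrps6). Mrpl37 and Mrps23 have no probe set of the unique type, whose name carries no mark for shared probes, so the setting that used that type alone could not be run for them. They were tested under 17 settings, against 18 for the rest of the 11. Fits with the replicate number as a block ended the calls of Mrpl9 (limma adjusted p = 0.0797), Mrps15 (0.0518), Mrps26 (0.0505) and Mrps34 (0.0573). Mrps26 is outside the rule by which genes were named and is given here after its values were seen. Leaving out MT replicate 1 or WT replicate 3 ended the call of Mrps9 (limma adjusted p = 0.0562 and 0.0575), and leaving out MT replicate 2 ended that of Mrpl35 (0.0558). Averaging all probe sets of a gene ended the calls of Mrpl1 (-0.13, limma adjusted p = 0.132), Mrpl44 (0.11, 0.205), Mrpl35 (0.12, 0.127), Mrpl17 (-0.16, 0.118) and Mrpl42 (-0.11, 0.231), and that of Mrps15. For Mrps15, leaving out MT replicate 2, MT replicate 3, WT replicate 1 or WT replicate 3 gave limma adjusted p-values of 0.0528 to 0.0879.

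Mrps34 lost its call without MT replicate 2, 3 or 4 or WT replicate 2 or 4 (limma adjusted p = 0.0569 to 0.0824). Mrpl20 lost it without MT replicate 2, 3 or 4 or WT replicate 1, 2 or 3 (0.084 to 0.125). Mrpl9 lost it without any array but WT replicate 3 (0.0584 to 0.127). In the other direction, Mrpl50 passed without MT replicate 1, WT replicate 1 or WT replicate 4 (limma adjusted p = 0.0353 to 0.0468), and Mrpl38 without WT replicate 3 (0.0494).

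RNA quality and cell makeup were read from the same arrays, and their part in the members' results was not tested. The 3' minus 5' log2 difference of the Gapdh control probe sets averaged 0.51 ± 0.09 in MT and 0.70 ± 0.17 in WT, and that of Actb 0.73 ± 0.12 in MT and 0.91 ± 0.14 in WT (SD, n = 4 each; two-sided exact permutation p = 0.0857 and 0.114, where 0.0286 is the smallest p possible). All 11 smooth muscle markers were lower in MT (mean level 7.95 to 8.74 on MT arrays and 8.94 to 9.62 on WT arrays), as were 10 of 13 fibroblast and matrix markers. Of 13 macrophage markers, 8 were higher and 1 lower (mean level 7.07 to 7.27 on MT arrays and 6.29 to 6.87 on WT arrays), and without MT replicate 1, MT replicate 4 or WT replicate 3 the lower count was 0. In whole tissue, fewer cells of a type and less RNA per cell cannot be told apart.

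The partners of the ribosomal proteins were read from the same limma fit. In it 41.1% of all genes passed, and 56.1% of the genes at or above the median level (27.2% higher and 28.9% lower). Of 4 further ribosome proteins without an Mrp name, 1 was lower, Chchd1 at -0.35 (limma adjusted p = 0.00953), while Dap3 differed by 0.10 and Ptcd3 by 0.04 without passing. Of 24 assembly factors, 2 were higher and 4 lower, with a median difference of -0.06. The lower ones included Tfb1m, which methylates the small-subunit rRNA, at -0.52 (limma adjusted p = 0.00075), and Yme1l1, a protease of the inner membrane, at -0.80 (limma adjusted p = 0.00286). Rcc1l, which helps to mature the large subunit, was higher by 0.45 (limma adjusted p = 0.0133) and kept its call whichever single array was left out. The other higher one, Mettl17, differed by 0.27 (limma adjusted p = 0.0451). Mettl17 lost its call without any single MT array or WT replicate 4 (limma adjusted p = 0.0596 to 0.11). The higher count of the list was 1 without MT replicate 2, 3 or 4 or WT replicate 4.

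Of 7 translation factors, 1 was higher and 1 lower; the lower count was 2 without MT replicate 2 and 0 without MT replicate 3, WT replicate 1 or WT replicate 2. Tufm, the elongation factor that brings aminoacyl-tRNA to the ribosome, was higher by 0.29 (limma adjusted p = 0.0123), but its difference was 0.05 in the mean over its probe sets. Mtif2, the initiation factor, differed by -0.21 without passing (limma adjusted p = 0.0831); it passed with the replicate block (limma adjusted p = 0.0241) and without MT replicate 2 (0.0366). Of 13 mitochondrial aminoacyl-tRNA synthetases and amidotransferase subunits, 0 were higher and 2 lower, among them Gatb at -0.45 (limma adjusted p = 0.00253). The lower count of that list was 1 without MT replicate 2, 3 or 4 or WT replicate 1 or 2, and 4 without WT replicate 3.

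Regulators of mitochondrial gene expression moved in both directions, with 3 of 17 higher and 6 lower. Max, 1 of the 6, differed by -0.65 (limma adjusted p = 0.0476). It lost its call with the replicate block (limma adjusted p = 0.0634) and in the mean over probe sets (0.0517). So it did without MT replicate 1, 3 or 4 or WT replicate 3 or 4 (0.0667 to 0.116). GABP, a factor known to bind ETS cores like the one in capitals for Mrps18a, is made of an alpha and a beta protein. The beta gene Gabpb1 read 6.72, 6.76, 6.86 and 6.87 on the MT arrays, against 5.68, 5.50, 5.67 and 5.87 on the WT arrays. It was higher without overlap, by 1.12 ± 0.08 SE (limma adjusted p = 1.24e-06), whereas Gabpa, the part that holds the DNA, was lower, at -0.40 (limma adjusted p = 0.00551). Esrra, a nuclear receptor that acts on genes of oxidative metabolism, was higher by 0.48 (limma adjusted p = 7.08e-05). Nrf1, whose protein binds the other motif, was higher by 0.23 (limma adjusted p = 0.0254), and this call was lost without MT replicate 1, 2 or 3 or WT replicate 2 or 3 (limma adjusted p = 0.0522 to 0.0687) and in the mean over its probe sets (0.141). Sirt3, a mitochondrial deacylase, was lower, at -0.54 (limma adjusted p = 0.000116).

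The coactivator genes Ppargc1a at -0.20 (limma adjusted p = 0.14) and Ppargc1b at 0.17 did not pass, although Ppargc1a did with the replicate block (limma adjusted p = 0.0372). Myc at 0.01 and Tfam, which packs mitochondrial DNA, at 0.00 did not pass either. Of 18 genes that maintain and transcribe mitochondrial DNA or handle its RNA, 3 were higher and 4 lower. Polg, the mitochondrial DNA polymerase, was higher by 0.49 (limma adjusted p = 0.000327), and Tfb2m, which helps to open mitochondrial promoters, was lower, at -0.41 (limma adjusted p = 0.00191). Lrpprc, which stabilises mitochondrial messages, was higher by 0.28 (limma adjusted p = 0.0153).

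The proteins of the cytosolic ribosome, which translates the nuclear messages, can be set beside the members. The list held 79 cytosolic ribosomal protein genes, and only the 43 with a single-symbol probe set were measured. Among these 43, 0 were higher and 29 lower, with a median difference of -0.24. Of the 43, 41 lay at or above the median level over all genes, where 28.9% of genes were lower. The 74 mitochondrial ones had 8 higher, 14 lower and a median of 0.01. The mean level over the 43 lay at 11.39 to 11.40 on MT arrays and 11.61 to 11.64 on WT arrays. Rps6 differed by -1.12 (limma adjusted p = 4.91e-07) and Rpl8 by -0.46 (limma adjusted p = 8.24e-05). The difference between these lists was not tested. Without WT replicate 1, 2 cytosolic genes were called higher, and without WT replicate 2, 1 was.

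Of all genes 19.7% were higher and 21.3% lower, and of those at or above the median level 27.2% and 28.9%. All measured genes of complex I, complex III and ATP synthase lay at that level. So did 9 of 10 for complex IV, 15 of 16 for mitochondrial mass and 14 of 35 for proliferation. How far these lists depart from the shares was not tested. Of the complexes that need mitochondrial translation, complex I had 2 of 32 nuclear subunits higher and 11 lower (6.25% and 34.4%), with a median difference of -0.14. Without WT replicate 4 the lower count was 7. Complex III had 2 of 9 nuclear subunits higher and 2 lower, with a median of 0.00; the higher count was 1 with the replicate block, in the mean over probe sets and without any single array but WT replicate 3. Complex IV had 6 of 10 nuclear subunits higher and 1 lower, with a median of 0.22; the lower one, Cox4i1, lost its call without MT replicate 1 or 2 (limma adjusted p = 0.0626 and 0.0533). ATP synthase had 4 of 16 higher and 3 lower, and the lower count was 5 without WT replicate 3. Genes of mitochondrial mass and the outer membrane had 3 of 16 higher and 1 lower, with a median of 0.03, and the lower count was 2 without WT replicate 2 or 3. Over the same arrays, 28 of 35 proliferation genes were higher and 0 lower, with a median difference of 0.92, and 1 was lower without MT replicate 2 or WT replicate 3.

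**Figure D4:**
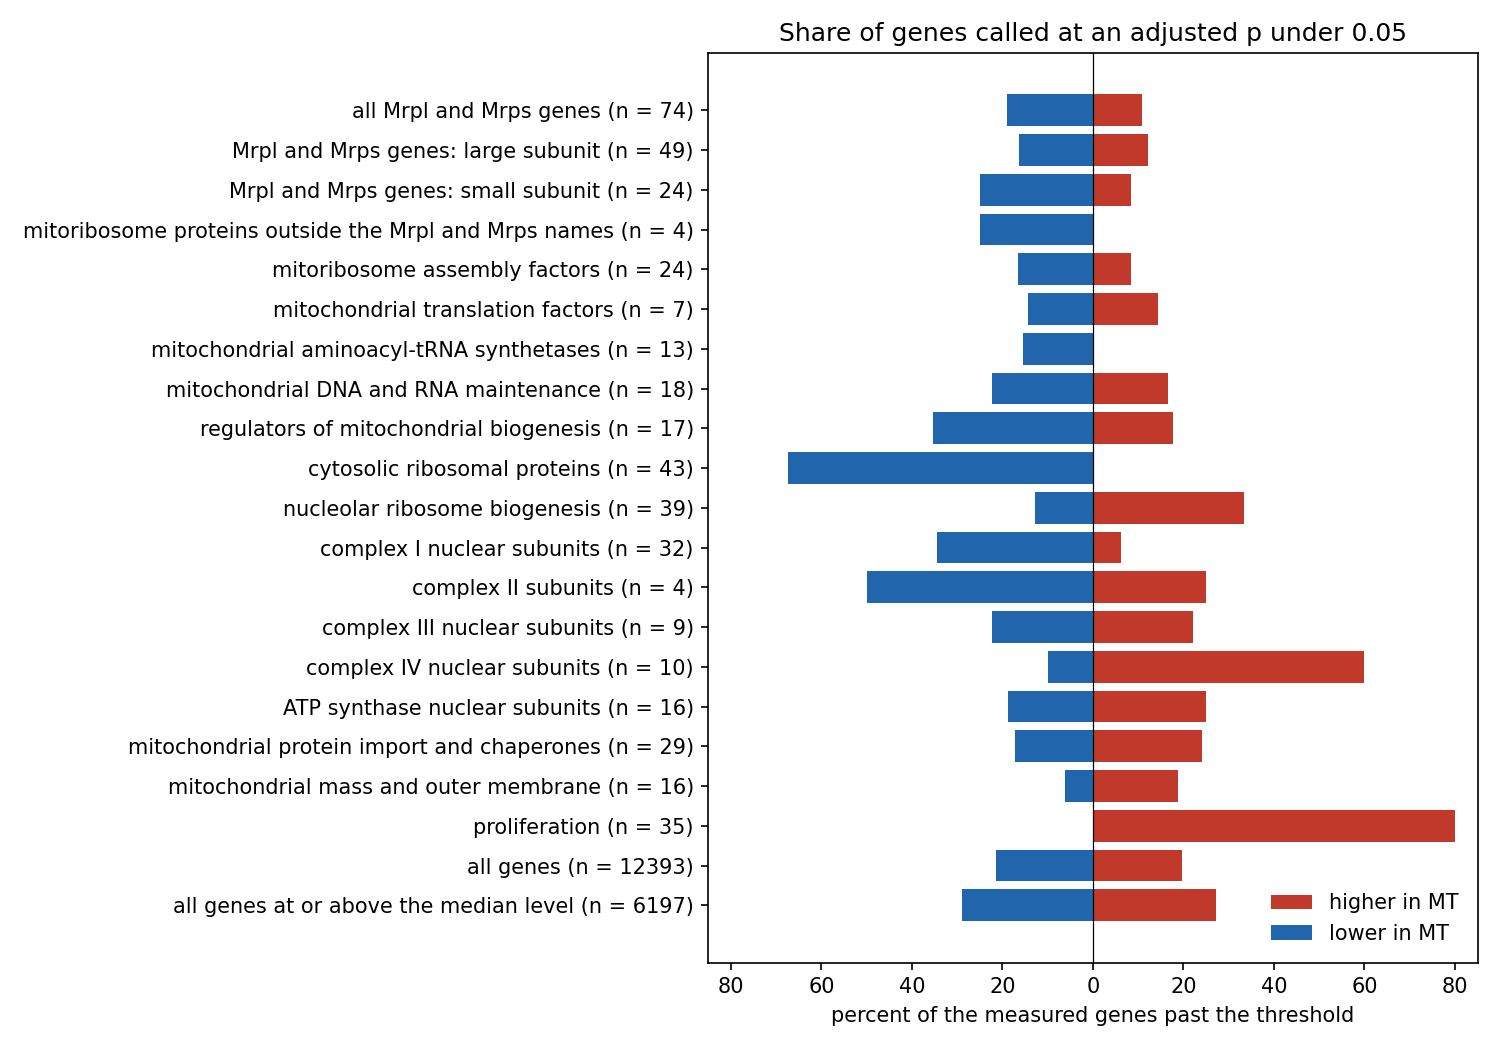
Bars give the percent of measured genes past the threshold of 0.05, to the right for genes higher in MT and to the left for genes lower in MT, with the number of genes of each list in brackets and all genes in the lowest rows. The 74 members reach 10.8% higher and 18.9% lower, the cytosolic ribosomal proteins 67.4% lower, and proliferation genes 80.0% higher.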

How the data were processed

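RNA of 4 MT and 4 WT arrays was compared. Values were deposited as log2 intensities that the authors made with RMA, per the submitters' processing notes. RMA subtracts background, equalises the distributions of all arrays and combines the probes into 1 value per probe set; the sources used here do not give its version. The labels' protocols give Trizol extraction, RNeasy columns and biotin labelling. The 8 columns were not rescaled, and low values were kept. Arrays have no depth, so precision depends on their number.

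The 64 controls among the 22690 probe sets were left out. Of the other 22626, 20380 had a single gene symbol in the platform annotation, 691 had several and 1555 had none; only single-symbol probe sets named a gene, and 20351 of them matched the mouse reference gene table, which changed 0 symbols. A further 3 probe sets carried a member's symbol beside another gene's and were not used for either. The main test was limma 3.58.1 (lmFit and eBayes, R 4.3.3) with no covariate, and it was tested on simulated data. Sequences came from RefSeq.

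The members and the 26 companion lists (408 genes measured) were chosen with earlier results of these data known. Genes were named by a rule: the 12 largest rises and falls among members past the threshold, members at the ends of the level range or next to the threshold, members whose probe sets disagreed, some members with known duties, and the largest changes of each companion list with some regulators. No label states what arrays with the same replicate number share, so reading them as pairs came from the data. Residuals of MT and WT arrays with the same number correlated at 0.10 to 0.18, against -0.18 to 0.08 for other pairs. The main fit did not use this pairing, and only the replicate block did. Alternatives were a replicate block, another prior, array weights, renormalization, median centring, a level filter, a minimum difference, a stricter threshold, other ways to choose probe sets and leaving out arrays.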

Additional observations from a re-analysis of the deposited data

Results flagged for a closer look

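Dixon's test for a value apart from the rest was run on 78 groups of 4 arrays, and 2 stood out; chance flags about 1 group in 20. Mrps6 read 7.24 on MT replicate 2, while the other MT arrays read 6.94 to 6.98. Mrps12 read 8.99 on MT replicate 3, while the other MT arrays read 8.93 to 8.94, a gap far smaller than that of Mrps6 in size.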

How the results depend on the processing

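Among the 8 higher and 14 lower members, a test against a minimum difference of 0.25 left 1 and 6. The 1 higher was Mrpl44, whose direction depends on the probe set. Probe sets of the unique type alone (59 members tested) left 4 and 9. An adjusted p under 0.01 left 5 higher, and among the lower members it ended only the calls of Mrpl20, Mrps34, Mrps26 and Mrpl9. The replicate block gave 7 and 11 and changed no call of a member other than those of Mrpl9, Mrps15, Mrps26 and Mrps34. For the 13 higher and 20 lower probe sets the minimum difference left 2 and 5, and an adjusted p under 0.01 left 4 and 11. Without MT replicate 4, and without WT replicate 4 and MT replicate 2 together (added after seeing the data), 13 probe sets were lower. Leaving out single arrays gave 6 to 8 higher and 10 to 14 lower genes, and 9 to 15 higher and 13 to 19 lower probe sets. Over the companion lists it gave 95 to 103 higher and 97 to 112 lower genes, against 101 and 109. For RNA quality the difference ran from -0.25 to -0.13 for Actb and from -0.24 to -0.12 for Gapdh. With probe sets of the unique type Mrpl44 turned to -0.29, Mrpl35 to -0.042, Ddx21 to -0.38 and Uqcrb to -0.16, since another probe set then stood for the gene. Of 640 results for the 36 named members under the alternatives, 568 left the call as it was, 59 lost a call, 11 gained one and 2 turned. A change of direction was counted as a turn only where a call was involved. Mrpl57, which passed in no setting, ran from -0.13 to 0.19 and was counted as unchanged. Median centring moved the median of all genes to -0.05 and gave 2152 higher and 3109 lower genes in all, against 2447 and 2641. Only 4 arrays a group limit what could be seen, and 10 member probe sets read no higher than the bacterial controls on at least 1 array.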

Other observations

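Ribosome production in the nucleolus, the other place where ribosomes are assembled, had 13 of 39 genes higher in MT and 5 lower, with a median difference of 0.13. Nhp2, a protein of the complexes that modify rRNA, was higher by 0.85 (limma adjusted p = 4.82e-06). Rrs1, an assembly factor of the cytosolic large subunit, was lower, at -0.87 (limma adjusted p = 2.37e-05), and Rrn3, which recruits RNA polymerase I, was lower, at -0.52 (limma adjusted p = 6.99e-05). Genes of mitochondrial protein import and chaperones had 7 of 29 higher and 5 lower, with a median of 0.07. These lists belong to the same fit, in which 41.1% of all genes passed, and 56.1% of those at or above the median level. At that level lay 33 of the 39 nucleolar genes and 28 of the 29 import and chaperone genes.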
